A study of Mus musculus with 6 samples.

Results

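Myostatin, the activins and the bone morphogenetic proteins (BMPs) are secreted factors of the TGF-beta superfamily, and 10 genes of their signalling in muscle are described here: Mstn, Fst, Fstl1, Acvr2a, Acvr2b, Bmpr1a, Smad3, Smad7, Id1 and Id2. The genes were chosen by name and found by their Entrez identifiers, and all 10 were among the 13363 genes of the deposited table. RNA was sequenced from the gastrocnemius, a calf muscle, of male Balb/c mice that were 6 weeks old when bought and acclimated for 1 week. The 3 C26 samples came from mice carrying a tumour grown from subcutaneously injected cells of the colon-26 (C26) mouse adenocarcinoma line, a model of cancer cachexia, and the 3 control samples came from mice without a tumour. The model rests on 1 tumour line in 1 strain. The labels number the samples within each group and do not say whether a sample was 1 animal or a pool, so the p-values measure only the spread between these samples.

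Ligands of this family bind pairs of type II and type I receptors, and the type I receptor phosphorylates Smad proteins that enter the nucleus with Smad4. Myostatin, made by muscle fibres, and the activins use the type II receptors Acvr2a and Acvr2b and act through Smad2 and Smad3, and this arm restrains muscle mass. BMPs share the type II receptors, use type I receptors such as Bmpr1a, act through Smad1 and Smad5 and induce the Id genes, and this arm favours muscle mass. Follistatin (Fst) captures myostatin and activins outside the cell, and Smad7 blocks signalling inside it.

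Promoter sequences were taken from RefSeq on GRCm38.p6, as the 250 bases before the start site annotated there, 5′ to 3′ on the gene's strand. Gene spans given later are from GENCODE, whose starts can differ, so the Id2 window lies inside the GENCODE span of Id2 and the Fstl1 window reaches into that of Fstl1. An entry was found for 7 of the 10 genes, and none for Fst, Smad7 and Id1. The 4 windows shown belong to the ligand (Mstn), the gene that fell (Fstl1) and the others whose values in C26 muscle lay furthest below control (Smad3 and Id2). Mstn lies at chr1:53061390-53061639 on the plus strand, Fstl1 at chr16:37776805-37777054 on the plus strand, Smad3 at chr9:63757995-63758244 on the minus strand and Id2 at chr12:25096093-25096342 on the minus strand. Capitals mark matches on either strand of the Smad-binding core GTCTG, the palindromic Smad-binding element GTCTAGAC, the GC-rich BMP element GGCGCC and the E-box CANNTG, the site of myogenic and other basic helix-loop-helix factors.
Mstn: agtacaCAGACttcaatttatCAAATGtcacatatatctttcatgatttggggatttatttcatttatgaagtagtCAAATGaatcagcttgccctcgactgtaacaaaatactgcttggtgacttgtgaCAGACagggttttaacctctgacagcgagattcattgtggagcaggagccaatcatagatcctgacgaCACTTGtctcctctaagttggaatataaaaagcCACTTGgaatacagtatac
Fstl1: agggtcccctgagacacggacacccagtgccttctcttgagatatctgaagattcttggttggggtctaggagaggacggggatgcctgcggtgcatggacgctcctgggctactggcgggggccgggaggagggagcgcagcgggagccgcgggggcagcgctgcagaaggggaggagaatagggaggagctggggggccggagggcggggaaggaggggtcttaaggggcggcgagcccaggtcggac
Smad3: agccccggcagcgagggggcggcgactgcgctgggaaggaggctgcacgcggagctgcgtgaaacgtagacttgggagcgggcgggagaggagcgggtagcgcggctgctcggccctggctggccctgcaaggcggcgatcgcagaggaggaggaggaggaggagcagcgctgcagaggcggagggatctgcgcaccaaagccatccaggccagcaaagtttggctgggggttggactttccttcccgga
Id2: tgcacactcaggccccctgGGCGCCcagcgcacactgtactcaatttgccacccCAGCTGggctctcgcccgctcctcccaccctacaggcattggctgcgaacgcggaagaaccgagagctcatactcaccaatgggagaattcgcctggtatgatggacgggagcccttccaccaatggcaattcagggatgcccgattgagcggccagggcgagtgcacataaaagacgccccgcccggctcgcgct

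The Mstn window had 38.4% G and C, the GTCTG core (here as its reverse complement, CAGAC) at -244 and -120, and E-boxes at -229, -174, -52 and -19 from the start site. The Id2 window had 62.8% G and C, with GGCGCC at -231 and an E-box at -196. The Fstl1 and Smad3 windows, with 68.0% and 69.2% G and C, held no match of these 4 motifs. Of 32851 mouse promoter windows of this length, GTCTG occurred in 42.2%, GTCTAGAC in 0.167%, GGCGCC in 9.59% and CANNTG in 66.2%. A match in these letters is a description of the sequence and not a bound site.

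Levels are given as normalized TPM, that is, the deposited FPKM rescaled to TPM (transcripts scaled to the same sum in every library) and divided by a scaling factor for each library (TMM), so that levels are per length and can be compared between genes. Read counts were not analysed, and the depth behind each value is unknown. Markers of muscle fibres were, as a sum, abundant in every sample, with Ckm (muscle creatine kinase) at 24506 to 42534 normalized TPM. The summed level of 10 fibre markers was 96366 to 169538 normalized TPM in C26 and 191087 to 212244 in control muscle. Of these 10, 2 fell (Pvalb and Mylpf) and 0 rose (limma adjusted p under 0.05), 20.0% lower against 14.5% of all genes. C26 replicate 3 and control replicate 3 stood apart from their groups. C26 replicate 3 scored 39.2 on the first principal component (55.1% of the variance) against 92.2 and 95.4 in the other C26 muscles, and its myoglobin (Mb) level was 9287 normalized TPM against 488 and 127. Control replicate 3 scored 80.7 on the second component (19.9% of the variance) against -22.4 and -51.2, and its level of Ptprc, a marker of leukocytes, was 57.9 normalized TPM against 1.21 and 0.677.

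In control muscle Mstn had the highest level of the 10 genes, 32.8 ± 9.21 normalized TPM (mean ± SD, n = 3 here and below), above 81.3% of listed genes. Fstl1, Smad3, Id1 and Bmpr1a followed with means from 25.6 down to 15.5, and each overlapped its neighbour in the order. Between Bmpr1a and Acvr2a, at 7.05 ± 2.07, the control values did not overlap. Acvr2b, Id2, Fst and Smad7 came last, down to 3.22 ± 1.92, with overlapping values. In C26 muscle Mstn again had the highest mean, 44.3 ± 29.2 normalized TPM, but Id1 was in the second place and Id2 in the last, at 0.511 ± 0.131. Gaps without overlap lay in C26 muscle between Id1 and Bmpr1a, between Acvr2a and Acvr2b, and between Fst and Id2.

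**Figure D1:**
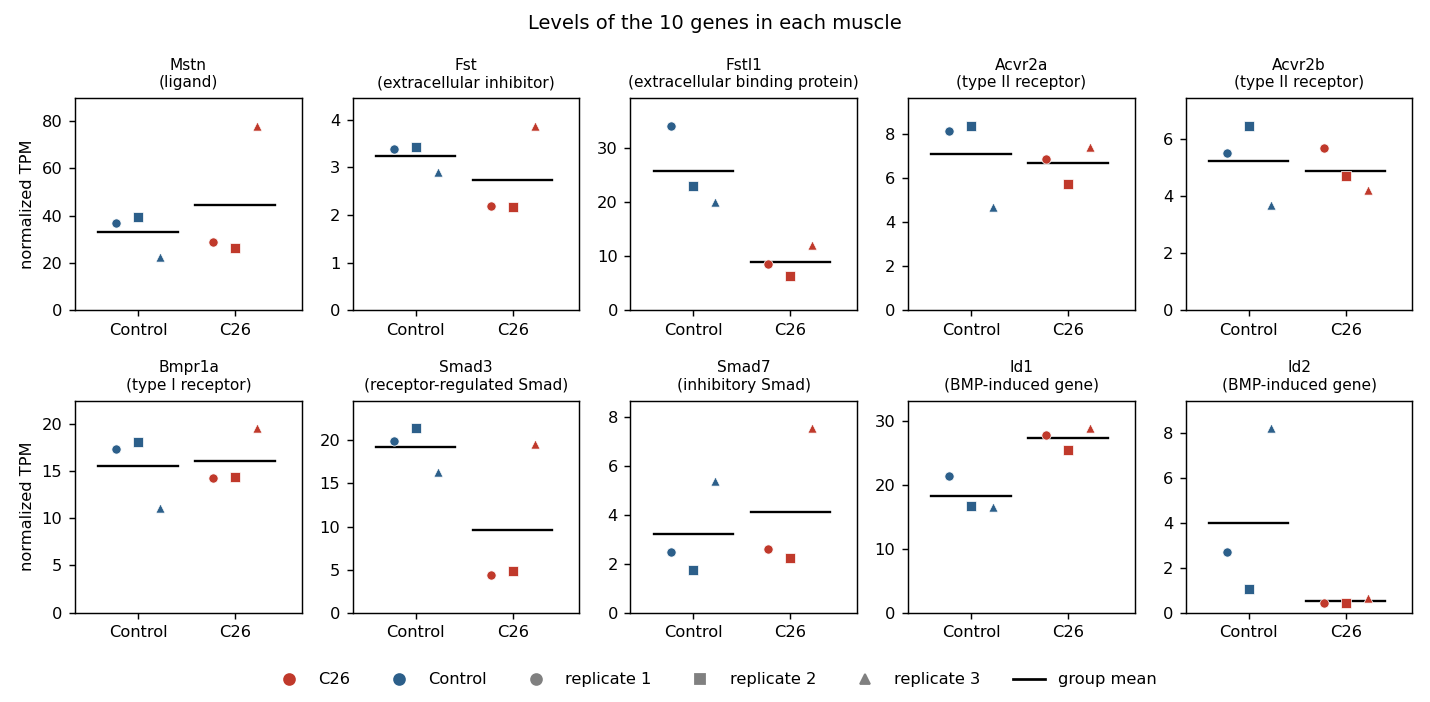
Normalized TPM (vertical axes, linear and from 0, with a separate scale in each panel) of the 10 genes in 3 control and 3 C26 muscles. Points are muscles, shapes are replicate numbers and lines are group means. Fstl1 and Id2 lay lower and Id1 higher in all C26 muscles than in any control muscle, and the triangle of C26 replicate 3 was the highest C26 value for 9 of the 10 genes.

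The comparison of C26 with control muscle asked which of these transcripts differ in wasting muscle. Of the 10 genes, 2 passed the test (limma, Benjamini-Hochberg adjusted p under 0.05 over all listed genes): Id1 rose and Fstl1 fell. Over all genes 4521 of 13363 passed, which is 33.8%, with 19.4% higher and 14.5% lower in C26 muscle, and the members' share was 20.0%. On FPKM as deposited 4182 genes passed, and 40.1% of these were higher, against 57.3% of the calls on normalized TPM. None of the 10 also passed the study's fold criterion of more than 4, which 466 genes (3.49%) met, and at an unadjusted p under 0.05 limma gave 1 member higher and 2 lower, against 25.1% and 22.0% of all genes. The values of 3 members (Id1, Fstl1 and Id2) did not overlap between the groups, against 53.5% of all genes. The median log2 fold change was -0.05 for the members and -0.05 for all genes.

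Mstn encodes myostatin and lies on chromosome 1 (GRCm38, 53061640 to 53068079, plus strand). Its level was 28.6, 26.4 and 78.0 normalized TPM in C26 muscles 1 to 3 and 37.0, 39.3 and 22.3 in control muscles 1 to 3. The groups overlapped: C26 replicates 1 and 2 lay inside the control range, and C26 replicate 3 lay above all others. The log2 fold change (C26 minus control) was 0.28 with a standard error (SE) of 0.45 and a 95% interval from -0.79 to 1.36 (limma adjusted p = 0.643). Without C26 replicate 3 the log2 fold change turned to -0.13 (SE 0.26, adjusted p = 0.712), and without replicate 3 of both groups it was -0.36 (SE 0.13, adjusted p = 0.0762). The direction of Mstn thus depended on C26 replicate 3, and it also turned, to -0.03, with quantile normalization. Summed muscle fibre markers, given above, were lower in C26 muscle, and their part in the Mstn values was not tested.

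Fst encodes follistatin, which binds activins and myostatin. It was low, at 2.18, 2.17 and 3.88 normalized TPM in C26 muscles 1 to 3 and 3.38, 3.44 and 2.90 in control muscles 1 to 3. C26 replicates 1 and 2 lay below every control and C26 replicate 3 above every control. The log2 fold change was -0.21 (SE 0.20, 95% interval -0.70 to 0.28, adjusted p = 0.452). It was -0.36 without C26 replicate 3 (adjusted p = 0.0758) and -0.40 without replicate 3 of both groups, where it passed the test (adjusted p = 0.0478). An exon of Fst overlaps Gm47040 on the opposite strand, and whether the reads kept their strand was not given in the sources used here.

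Fstl1 encodes a secreted glycoprotein of the follistatin family that binds BMPs and is made largely by mesenchymal cells. It lies on chromosome 16 (GRCm38, 37776873 to 37836514, plus strand). Fstl1 was at 8.54, 6.28 and 12 normalized TPM in C26 muscles 1 to 3 and at 34.1, 22.9 and 19.9 in control muscles 1 to 3. Every C26 value lay below every control value. Fstl1 fell by 1.43 on the log2 scale (SE 0.28, 95% interval -2.11 to -0.75, 2.69-fold, adjusted p = 0.0131). With each muscle left out in turn, the fall passed the test in 5 of 6 fits and missed it without C26 replicate 1 (log2 fold change -1.42, adjusted p = 0.0535). It was -1.56 without C26 replicate 3 (adjusted p = 0.00876).

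Fibroblast markers were lower in the same muscles. Of 11 fibroblast markers, 8 fell and 0 rose at the adjusted threshold (limma), against 14.5% of all genes lower, all 11 were lower without overlap, against 26.5% of all genes, and their summed level was 516 to 906 normalized TPM in C26 and 1134 to 1697 in control muscle. Among them Col1a1, a chain of type I collagen, fell by 2.97 on the log2 scale (SE 0.41, adjusted p = 0.00524), and Dcn, which encodes decorin, a matrix proteoglycan that also binds myostatin, was at 294 ± 32.8 against 361 ± 38.8 normalized TPM (log2 fold change -0.29, SE 0.16, adjusted p = 0.181). The share of these markers in the Fstl1 result was not tested. In whole muscle, fewer cells of a type and less RNA per cell cannot be told apart.

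The receptors among the members gave values near those of control muscle. Acvr2a, a type II receptor for activins, myostatin and some BMPs, was at 6.87, 5.72 and 7.40 normalized TPM in C26 muscles 1 to 3 and at 8.13, 8.36 and 4.67 in control muscles 1 to 3. Its log2 fold change was -0.04 (SE 0.23, 95% interval -0.60 to 0.51, adjusted p = 0.901). All 3 C26 values lay between the lowest and the highest control value. Acvr2b, the other type II receptor of this pair and the receptor with the higher affinity for myostatin, was at 5.70, 4.71 and 4.22 normalized TPM in C26 muscles and at 5.51, 6.47 and 3.68 in control muscles 1 to 3. Its log2 fold change was -0.06 (SE 0.21, 95% interval -0.57 to 0.45, adjusted p = 0.832), again with every C26 value inside the control range. Bmpr1a, a type I receptor for BMPs, was at 14.2, 14.3 and 19.5 normalized TPM in C26 muscles and at 17.3, 18.1 and 11.1 in control muscles 1 to 3. The groups overlapped, with C26 replicate 3 the highest and control replicate 3 the lowest, and the log2 fold change was 0.06 (SE 0.23, 95% interval -0.49 to 0.61, adjusted p = 0.859). The intervals leave room for differences of up to about these bounds in either direction. The sign of each of these receptor differences turned under quantile normalization, and exons of Acvr2a (with Orc4) and Bmpr1a (with Gm17110) overlap a gene on the opposite strand.

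Smad3 is the receptor-regulated Smad through which myostatin and activins act, and it lies on chromosome 9 (GRCm38, 63646767 to 63757994, minus strand). It was at 4.34, 4.79 and 19.6 normalized TPM in C26 muscles 1 to 3 and at 19.9, 21.4 and 16.3 in control muscles 1 to 3. C26 replicates 1 and 2 lay far below all controls, and C26 replicate 3 lay within the control range. The log2 fold change was -1.22 (SE 0.51, 95% interval -2.46 to 0.01) and missed the test (adjusted p = 0.109). Without C26 replicate 3 it was -1.78 (SE 0.15, adjusted p = 0.00159), where 40.9% of all genes passed, and without replicate 3 of both groups it was -1.88 (SE 0.13, adjusted p = 0.00116), where 49.3% of all genes passed. In the first of these fits 3 of the 10 members passed (Fstl1, Smad3 and Id1), and in the second 4 did (Fst, Fstl1, Smad3 and Id1).

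Smad7 is the inhibitory Smad that shuts off the type I receptors. It was at 2.60, 2.24 and 7.55 normalized TPM in C26 muscles 1 to 3 and at 2.50, 1.76 and 5.39 in control muscles 1 to 3. The muscle numbered 3 was the highest in both groups, and the groups overlapped. The log2 fold change was 0.23 (SE 0.46, 95% interval -0.88 to 1.34, adjusted p = 0.715), and it turned to -0.15 without C26 replicate 3 and to -0.03 without control replicate 2.

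**Figure D2:**
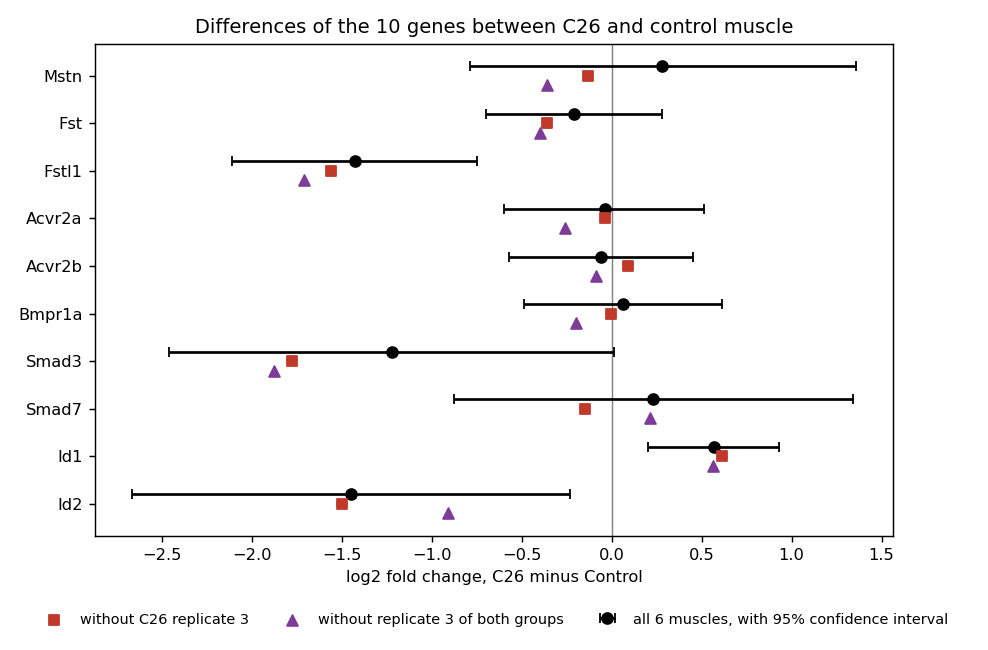
Log2 fold change of the 10 genes, C26 minus control (horizontal axis), in all 6 muscles (circles, with limma's 95% confidence interval), without C26 replicate 3 (squares) and without replicate 3 of both groups (triangles). Only the intervals of Fstl1, Id1 and Id2 left out 0, and leaving out C26 replicate 3 moved Smad3 from -1.22 to -1.78 and Mstn from 0.28 to -0.13.

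The Id genes encode proteins that lack a DNA-binding region and hold basic helix-loop-helix factors such as MyoD off the E-box, and BMPs induce them. Id1 (chromosome 2 of GRCm38, 152736251 to 152737410, plus strand) was at 27.8, 25.5 and 28.9 normalized TPM in C26 muscles 1 to 3 and at 21.5, 16.8 and 16.6 in control muscles 1 to 3. Every C26 value lay above every control value. Id1 rose by 0.57 on the log2 scale (SE 0.15, 95% interval 0.20 to 0.93, 1.48-fold, adjusted p = 0.0321). With each muscle left out in turn, the rise passed the test in 2 of 6 fits. The adjusted p was 0.107 without C26 replicate 1, 0.0682 without C26 replicate 2, 0.0865 without control replicate 2 and 0.0638 without control replicate 3, at log2 fold changes from 0.50 to 0.62. Id1 also missed the test under quantile normalization (log2 fold change 0.32, adjusted p = 0.182), on FPKM as deposited (0.35, adjusted p = 0.121) and with a pseudocount of 0.1 (0.59, adjusted p = 0.0555).

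Id2 (chromosome 12 of GRCm38, 25093799 to 25097140, minus strand) was at 0.443, 0.428 and 0.663 normalized TPM in C26 muscles 1 to 3 and at 2.71, 1.05 and 8.19 in control muscles 1 to 3. Every C26 value lay below every control value, and the control values spread widely. The log2 fold change was -1.45 (SE 0.51, 95% interval -2.67 to -0.23) and missed the test (adjusted p = 0.0677). With a pseudocount of 0.1 in place of 1, which weighs low values more, it was -2.31 and passed (adjusted p = 0.0375). Without control replicate 2 it was -1.96 and passed (adjusted p = 0.0259), and without control replicate 3 it was -0.87 (adjusted p = 0.0596). Control replicate 3, the highest for Id2, was also the muscle high in Ptprc, and the summed level of the lymphocyte markers listed (Ptprc and Cd4, of 8) was 73.1 normalized TPM in it, 0.779 and 1.36 in the other controls and 0.428 to 0.868 in C26 muscle. The part of these markers in the Id2 values was not tested.

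Endothelial cells also make Id1. Of 12 endothelial markers, 2 fell (Kdr and Emcn) and 0 rose, 16.7% lower against 14.5% of all genes, and their summed level was 167 to 179 normalized TPM in C26 and 177 to 258 in control muscle. Pecam1, an adhesion molecule of endothelial cells, was at 31.0 ± 1.32 and 31.0 ± 7.47 normalized TPM. Id3, the close relative of Id1, was at 19.2 ± 1.69 in C26 and 28.0 ± 7.64 in control muscle (log2 fold change -0.49, SE 0.23, adjusted p = 0.141, and -0.73, adjusted p = 0.0310, without control replicate 2), and Id4 fell by 0.88 on the log2 scale (SE 0.15, adjusted p = 0.00832) from a low control level of 1.2 ± 0.190 to 0.195 ± 0.127.

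Levels within a muscle were also compared as log2 ratios of normalized TPM after adding 1, so that scaling and the added 1 still act on the ratios of low genes. The 7 ratios were tested by a two-sided exact permutation test, for which 3 muscles against 3 cannot give a p below 0.1. The log2 ratio of Id1 to Id2 was 4.32, 4.22 and 4.17 in C26 muscles 1 to 3 and 2.60, 3.12 and 0.93 in control muscles 1 to 3. This difference of 2.02 was without overlap (exact p = 0.1, adjusted p = 0.233 over the 7 ratios), and with a pseudocount of 0.1 the difference was 2.90. For Id1 to Id3 the log2 ratio was 0.41, 0.53 and 0.54 in C26 and -0.52, -0.19 and -0.98 in control muscles, so Id1 exceeded Id3 in all 3 C26 muscles and in none of the controls (difference 1.05, exact p = 0.1, adjusted p = 0.233). The log2 ratio of Smad7 to Smad3 was -0.57, -0.84 and -1.27 in C26 and -2.58, -3.02 and -1.44 in control muscles. It was higher without overlap, by 1.45 (exact p = 0.1, adjusted p = 0.233), and the closest values were those of C26 replicate 3 and control replicate 3.

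The ratio of the ligand to its inhibitor overlapped between the groups. The log2 ratio of Mstn to Fst was 3.22, 3.11 and 4.02 in C26 and 3.12, 3.18 and 2.58 in control muscles (difference 0.49, exact p = 0.3, adjusted p = 0.420). The log2 ratio of Mstn to Fstl3, another follistatin-like inhibitor, differed by 0.40 (exact p = 0.6, adjusted p = 0.700). For Acvr2b to Acvr2a it had means of -0.38 in C26 and -0.36 in control muscle (exact p = 1, adjusted p = 1.0). For Smad3 to Smad2 the log2 ratio was 0.41, 0.57 and 2.45 in C26 and 2.62, 2.50 and 2.32 in control muscles (difference -1.33, exact p = 0.2, adjusted p = 0.350), with C26 replicate 3 again inside the control range.

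The members belong to a pathway of which 108 genes were put in lists by role, and 92 of these were in the table. Of the 92, 16 rose and 15 fell, together 33.7% against 33.8% of all genes, and without the 10 members 15 rose and 14 fell of 82. The split moved with the scale: 10 rose and 20 fell on FPKM as deposited, and 13 rose and 20 fell with a pseudocount of 0.1. It moved for all genes too: 40.1% and 51.1% of all calls were higher in these fits, against 57.3% with normalized TPM and a pseudocount of 1. The median log2 fold change of the 92 was -0.06. Of the 31 genes that passed, 13 passed in all 6 fits leaving out a muscle, 10 in 3 to 5 of them and 8 in 1 or 2 (Smurf2, Tgfbr3, Eng, Tgfbi, Tgfbr2, Pcsk6, Pmepa1 and Id1), and 0 changed sign. Leaving out C26 replicate 1 took the call from 18 of them and leaving out control replicate 1 from 15. Then 13 and 16 pathway genes passed, in fits where 13.4% and 14.0% of all genes passed. C26 replicate 3 was the highest C26 muscle for 50 of the 92 genes, against 39.8% of all genes, and control replicate 3 was the lowest control for 62, against 45.1% of all genes.

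**Figure D3:**
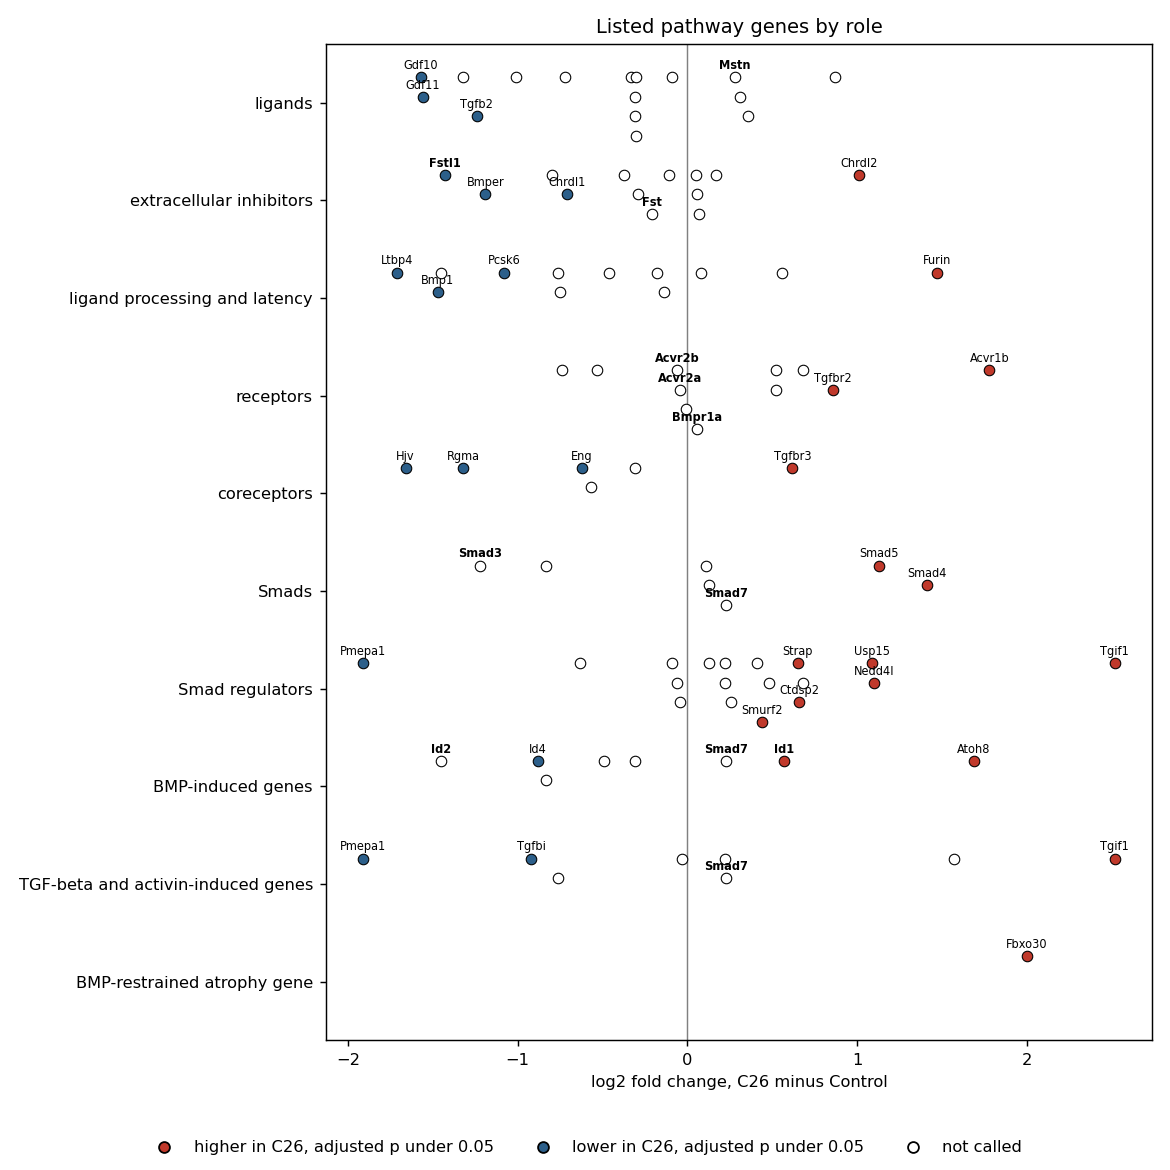
Log2 fold change, C26 minus control (horizontal axis), of the 92 listed pathway genes by role. Filled circles passed the test at an adjusted p under 0.05, names are given for these and, in bold, for the 10 members, a gene in several lists appears in each, and the height within a role carries no value. Of the 92 genes, 16 rose and 15 fell.

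Among 16 ligands listed, 0 rose and 3 fell at the adjusted threshold, 18.8% against 33.8% of all genes, and at an unadjusted p under 0.05 limma gave 0 higher and 6 lower (25.1% and 22.0% of all genes). Gdf11, the closest relative of myostatin, was at 0.248, 0.0514 and 0.984 normalized TPM in C26 muscles 1 to 3 and at 2.08, 4.11 and 3.21 in control muscles 1 to 3. It fell by 1.56 on the log2 scale (SE 0.30, adjusted p = 0.0116) and missed the test without C26 replicate 1 (adjusted p = 0.0517). Gdf10, a ligand related to Bmp3, fell by 1.57 (SE 0.16, adjusted p = 0.00284), and passed in every fit leaving out a muscle (-1.66 to -1.46, adjusted p up to 0.0209). Tgfb2, a TGF-beta ligand, fell by 1.24 (SE 0.24, adjusted p = 0.0123), and missed the test without C26 replicate 1 (adjusted p = 0.0539) or control replicate 1 (adjusted p = 0.0527), and with quantile normalization (-0.93, adjusted p = 0.0541). Inhba, which encodes the subunit of activin A, was at 0.157 ± 0.110 and 0.447 ± 0.353 normalized TPM in C26 and control muscle (adjusted p = 0.278), and Inhbb, that of activin B, at 4.12 ± 1.74 and 1.82 ± 1.06 (log2 fold change 0.87, SE 0.39, adjusted p = 0.126). Without C26 replicate 3 Inhbb was at 1.27 and passed as higher (adjusted p = 0.0368), and without replicate 3 of both groups at 0.94 (adjusted p = 0.00932). Without C26 replicate 3 Inha, which encodes the alpha subunit of inhibin, and Bmp2, a BMP ligand, passed as lower, at -1.45 (SE 0.13, adjusted p = 0.00182) and -0.44 (SE 0.13, adjusted p = 0.0443), against -1.01 (adjusted p = 0.0993) and -0.33 (adjusted p = 0.172) in all 6 muscles. Tgfb1 was highest in control replicate 3, at 29.6 normalized TPM, the muscle high in Ptprc, and its log2 fold change was -1.32 (adjusted p = 0.0948). Without that muscle it was -0.68 and passed the test (adjusted p = 0.0306).

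Of 13 extracellular inhibitors listed, 1 rose and 3 fell, Fstl1 among them, 30.8% against 33.8% of all genes. Chrdl2, a chordin-like BMP antagonist, rose by 1.01 on the log2 scale (SE 0.25, adjusted p = 0.0233), missing the test without C26 replicate 1, control replicate 1 or control replicate 3 (adjusted p = 0.0837, 0.0856 and 0.0519). Its relative Chrdl1 fell by 0.71 (SE 0.15, adjusted p = 0.0163), and it missed the test without C26 replicate 1, C26 replicate 2 or control replicate 1 (adjusted p = 0.0635, 0.0552 and 0.0600). With quantile normalization Chrdl1 was at -0.34 and missed it too (adjusted p = 0.143). Bmper, a secreted BMP-binding protein, fell by 1.19 (SE 0.21, adjusted p = 0.00942), from 3.77 ± 0.494 to 1.12 ± 0.554 normalized TPM. Nog, which encodes the BMP antagonist noggin, was at 4.66 ± 2.87 and 8.18 ± 1.85 normalized TPM in C26 and control muscle (adjusted p = 0.136), and without C26 replicate 3 its log2 fold change was -1.12 and passed (adjusted p = 0.0203).

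Ligands of this family are cut from precursors and released from latent complexes. Of 12 such genes listed, 1 rose and 3 fell, 33.3% against 33.8% of all genes. Furin, the protease that cuts promyostatin, was at 44.4, 37.9 and 26.6 normalized TPM in C26 muscles 1 to 3 and at 11.5, 15.0 and 10.5 in control muscles 1 to 3. It rose by 1.47 on the log2 scale (SE 0.23, adjusted p = 0.00745), without overlap, and passed in every fit leaving out a muscle. Bmp1, a tolloid-type protease that frees myostatin from its propeptide, moved the other way, from 15.7 ± 2.44 in control to 5.10 ± 1.49 normalized TPM in C26 muscle, and fell by 1.47 on the log2 scale (SE 0.22, adjusted p = 0.00634). Ltbp4, which holds latent TGF-beta in the matrix, fell by 1.71 (SE 0.36, adjusted p = 0.0154), and Pcsk6, a protease related to furin, by 1.08 (SE 0.26, adjusted p = 0.0224). Both missed the test without C26 replicate 1 (adjusted p = 0.0566 and 0.0808) or control replicate 1 (adjusted p = 0.0618 and 0.0746), and Pcsk6 also without replicate 2 of either group (adjusted p = 0.0688 and 0.0620) and with quantile normalization (adjusted p = 0.0572).

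All 11 receptors were in the table, and 2 rose and 0 fell, 18.2% against 33.8% of all genes. Acvr1b, a type I receptor of myostatin and activins (also called ALK4), was at 45.3, 34.9 and 67.9 normalized TPM in C26 muscles 1 to 3 and at 14.3, 17.9 and 8.77 in control muscles 1 to 3. It rose by 1.78 on the log2 scale (SE 0.33, 95% interval 0.99 to 2.57, 3.43-fold, adjusted p = 0.0108), without overlap, and passed in every fit leaving out a muscle. Its 2 type II partners Acvr2a and Acvr2b, given above, had intervals that ended at 0.51 and 0.45. Tgfbr2, the type II receptor for TGF-beta, rose by 0.86 (SE 0.22, adjusted p = 0.0268) and passed in 2 of the 6 fits leaving out a muscle, with adjusted p up to 0.0954 in the others (C26 replicates 1 and 2 and control replicates 1 and 2). It also missed the test on FPKM as deposited (0.63, adjusted p = 0.0863) and with quantile normalization (0.62, adjusted p = 0.0829). Tgfbr1 and Bmpr2, a TGF-beta and a BMP receptor, had log2 fold changes of 0.52 (SE 0.18, adjusted p = 0.0625) and 0.52 (SE 0.18, adjusted p = 0.0659), both without overlap. Bmpr2 passed without control replicate 2 (0.66, adjusted p = 0.0433), and Tgfbr1 without TMM (0.55, adjusted p = 0.0332). Bmpr1b was at 0.68 (SE 0.32, adjusted p = 0.142), Acvrl1, a receptor of endothelial cells, at -0.53 (SE 0.22, adjusted p = 0.106), and Acvr1 at -0.01 (SE 0.23, adjusted p = 0.980), with a sign that turned without TMM. Bmpr1b passed without C26 replicate 2 (1.02, adjusted p = 0.0383) and with quantile normalization (1.04, adjusted p = 0.0464), and Acvrl1 without control replicate 3 (-0.71, adjusted p = 0.0387) and on FPKM as deposited (-0.66, adjusted p = 0.0496). Acvr1c, a type I receptor known from fat cells, was near 0 in C26 muscle, at 0.0354, 0.0514 and 0.0189 normalized TPM, against 1.39, 0.931 and 0.130 in control muscle (log2 fold change -0.74, SE 0.28, adjusted p = 0.0799). It passed without control replicate 3 (-1.05, adjusted p = 0.0107) and with a pseudocount of 0.1 (-2.39, adjusted p = 0.0327). Of 8 adipocyte markers, 6 fell and 0 rose at the adjusted threshold (limma), against 14.5% of all genes lower. Without overlap 7 were lower, against 26.5% of all genes, and 1 (Adipor2) was higher. Their summed level, with Fabp4 the largest part, was 558 to 788 normalized TPM in C26 and 810 to 6240 in control muscle. Adipoq was at 3.13 ± 2.61 and 138 ± 124 normalized TPM in C26 and control muscle. The part of these markers in the Acvr1c values was not tested.

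Of 7 Smads listed, 2 rose and 0 fell, 28.6% against 33.8% of all genes. Smad4, the partner of both arms, was at 58.4, 49.2 and 44.3 normalized TPM in C26 muscles 1 to 3 and at 17.0, 21.0 and 17.2 in control muscles 1 to 3. It rose by 1.41 on the log2 scale (SE 0.16, 95% interval 1.02 to 1.80, 2.66-fold, adjusted p = 0.00363). Smad5, a Smad of the BMP arm, was at 18.1, 13.7 and 18.3 normalized TPM in C26 muscles 1 to 3 and at 7.50, 7.92 and 5.85 in control muscles 1 to 3. Neither gene overlapped between the groups, and both passed in every fit leaving out a muscle. Smad5 rose by 1.13 (SE 0.18, 95% interval 0.69 to 1.56, 2.19-fold, adjusted p = 0.00760). Smad1 differed by 0.13 on the log2 scale (SE 0.13, adjusted p = 0.481) and Smad2 by 0.11 (SE 0.13, adjusted p = 0.529), and both turned negative on FPKM as deposited. Smad6, the inhibitory Smad of the BMP arm, had C26 replicate 3 inside the control range, as Smad3 did. It was at 0.549, 0.496 and 2.06 normalized TPM in C26 muscles 1 to 3 and at 3.07, 2.84 and 1.55 in control muscles 1 to 3. Its log2 fold change was -0.83 (SE 0.33, adjusted p = 0.0969), and it was -1.13 without C26 replicate 3 (adjusted p = 0.0145).

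**Figure D4:**
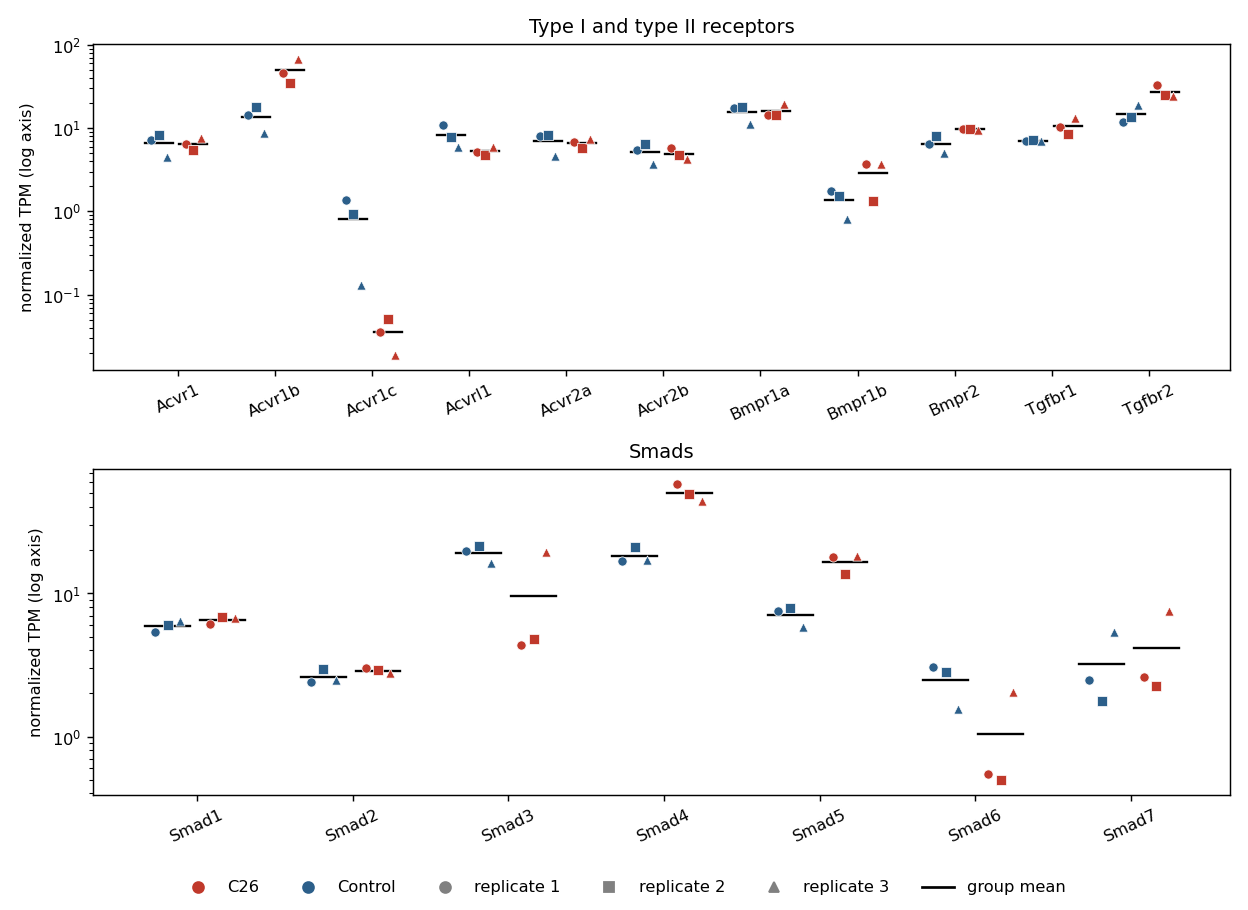
Normalized TPM (vertical axes, log scale) of the 11 receptors and the 7 listed Smads in control and C26 muscles. Points are muscles, shapes are replicate numbers and lines are group means. Acvr1b, Smad4 and Smad5 lay higher in all 3 C26 muscles than in any control, while C26 replicate 3 lay with the controls for Smad3.

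Coreceptors present ligands to the receptors. Of 6 listed, 1 rose and 3 fell, 66.7% against 33.8% of all genes. Hjv, the BMP coreceptor hemojuvelin, abundant in skeletal muscle, was at 147, 95.3 and 265 normalized TPM in C26 muscles 1 to 3 and at 502, 546 and 436 in control muscles 1 to 3. It fell by 1.66 on the log2 scale (SE 0.36, adjusted p = 0.0165) and missed the test without C26 replicate 1 (adjusted p = 0.0638), control replicate 1 (0.0619) or control replicate 2 (0.0502). Summed muscle fibre markers, given above, were also lower in C26 muscle, and their part in the Hjv values was not tested. Rgma, a relative of Hjv, fell by 1.32 (SE 0.18, adjusted p = 0.00505) from 16.0 ± 3.16 to 5.69 ± 0.238 normalized TPM, and passed in every fit leaving out a muscle. Eng, which encodes endoglin of endothelial cells, fell by 0.62 (SE 0.18, adjusted p = 0.0401), and Tgfbr3, betaglycan, rose by 0.62 (SE 0.19, adjusted p = 0.0440). Each of these 2 passed in 1 of the 6 fits leaving out a muscle, with adjusted p up to 0.123 for Eng and 0.142 for Tgfbr3, and on FPKM as deposited Tgfbr3 was at 0.40 (adjusted p = 0.126). With a pseudocount of 0.1 both missed the test (adjusted p = 0.0577 and 0.0565), as they did without TMM (adjusted p = 0.0569 and 0.0655), and so did Tgfbr3 with quantile normalization (adjusted p = 0.0529) and with limma-trend (adjusted p = 0.0564).

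Of 18 Smad regulators, 6 rose and 1 fell, 38.9% against 33.8% of all genes. Tgif1, a corepressor of Smad2 and Smad3, was at 40.7, 23.0 and 54.7 normalized TPM in C26 muscles 1 to 3 and at 5.69, 4.69 and 6.76 in control muscles 1 to 3. It rose by 2.52 on the log2 scale (SE 0.32, 5.73-fold, adjusted p = 0.00447), without overlap. Nedd4l, a ubiquitin ligase for activated Smad2 and Smad3, rose by 1.10 (SE 0.20, adjusted p = 0.0110), and both genes passed in every fit leaving out a muscle. Usp15, a deubiquitinase of Smads and receptors, rose by 1.09 (SE 0.25, adjusted p = 0.0203), the Smad phosphatase Ctdsp2 by 0.66 (SE 0.16, adjusted p = 0.0242), and Strap, a partner of Smad7 at the receptor, by 0.65 (SE 0.15, adjusted p = 0.0190). These 3 missed the test without C26 replicate 1, C26 replicate 2 or control replicate 1, with adjusted p up to 0.0763, 0.0842 and 0.0738. With quantile normalization their log2 fold changes were 0.69, 0.23 and 0.25, and none of the 3 passed (adjusted p = 0.0603, 0.233 and 0.169). On FPKM as deposited Ctdsp2 and Strap missed it too, at 0.44 and 0.43 (adjusted p = 0.0727 and 0.0516). Smurf2, a ubiquitin ligase that acts with Smad7, rose by 0.44 (SE 0.13, adjusted p = 0.0398) and passed in 1 of the 6 fits leaving out a muscle, and on FPKM as deposited it was at 0.23 (adjusted p = 0.167). It also missed the test with a pseudocount of 0.1 (adjusted p = 0.0693), without TMM (adjusted p = 0.0584), with a minimum mean TPM of 1 (adjusted p = 0.0566) and with limma-trend (adjusted p = 0.0716). Pmepa1, an inhibitor that TGF-beta itself induces, fell by 1.91 (SE 0.48, adjusted p = 0.0262), from 33.2, 16.4 and 9.75 normalized TPM in control muscles 1 to 3 to 2.64, 3.12 and 7.0 in C26 muscles 1 to 3, and passed in 2 of these fits, with adjusted p up to 0.0946 in the others (replicates 1 and 2 of both groups).

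Genes known to be induced by each arm did not move in 1 direction. Of 8 listed BMP-induced genes, 2 rose (Id1 and Atoh8) and 1 fell (Id4), 37.5% against 33.8% of all genes, with a median log2 fold change of -0.40. Atoh8, a basic helix-loop-helix factor induced by BMPs, was at 7.88, 6.93 and 18.2 normalized TPM in C26 muscles 1 to 3 and at 3.07, 1.98 and 2.34 in control muscles 1 to 3, and it rose by 1.69 on the log2 scale (SE 0.35, adjusted p = 0.0146). Of 8 listed genes induced by TGF-beta or activin, 1 rose (Tgif1) and 2 fell (Pmepa1 and Tgfbi), again 37.5%, with a median of 0.10. Tgfbi, a matrix protein, fell by 0.92 (SE 0.27, adjusted p = 0.0434) and passed in 1 of the 6 fits leaving out a muscle, with adjusted p up to 0.132. It missed the test without TMM (-0.89, adjusted p = 0.0629) and without replicate 3 of both groups (-0.67, adjusted p = 0.149). Ccn2, a matrix-associated growth factor, was at 9.87 ± 2.33 and 10.1 ± 2.70 normalized TPM in C26 and control muscle. Fbxo30, a ubiquitin ligase of muscle atrophy that BMP signalling holds down, was at 16.3, 11.3 and 15.3 normalized TPM in C26 muscles 1 to 3 and at 2.49, 3.50 and 2.40 in control muscles 1 to 3. It rose by 2.0 (SE 0.20, 4.01-fold, adjusted p = 0.00238), and passed in every fit leaving out a muscle.

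The genes whose log2 levels followed Mstn and Fstl1 most closely over the 6 muscles were sought among 11215 genes with a mean of at least 1 normalized TPM. For Mstn these were Slc25a22 (Pearson r = 0.999), a mitochondrial glutamate carrier, and Cldn12 (0.990), Nr3c2 (0.986), Iqschfp (0.982) and Ngfr (0.979). Slc25a22 was at 10.9, 9.88 and 26.8 normalized TPM in C26 muscles 1 to 3 and at 13.4, 14.2 and 8.18 in control muscles 1 to 3. As for Mstn, C26 replicate 3 was the highest and control replicate 3 the lowest muscle. For Fstl1 they were Pigb (0.998), Mxra7 (0.997), Tnxb (0.997), which encodes a tenascin of connective tissue, Tm4sf1 (0.997) and Tspan4 (0.996). These coefficients come from 6 muscles of 2 groups that share libraries and scaling, and they are the highest of many searched.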

How the data were processed

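Gastrocnemius RNA, in 3 C26 and 3 control samples, had been sequenced, per the study's methods, on the BGISEQ-500 as single-end reads of 50 bases. The extract protocol in the labels instead mentions THP-1 cells and an Illumina protocol. Muscle fibre markers were, as a sum, abundant in all samples, though lower in C26 than in control muscle. The deposited values are FPKM to 2 decimals, which the authors made by filtering reads, aligning them with bowtie2 and estimating expression with RSEM. The study's methods name the genome GRCm38.p5, while the submitters' processing notes list mm9, HISAT2 2.0.4, Bowtie2 2.2.5 and RSEM 1.2.12. All 13363 listed genes had an FPKM above 0 in every sample, so genes at 0 in any sample are outside the analysis. Depth is unknown, and the spread between muscles is the error used.

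Groups and replicate numbers came from the sample labels. Entrez identifiers were matched to symbols for 13333 genes and not for 30. FPKM were rescaled to TPM, divided by TMM factors (unweighted, trimming 30% of the log ratios and 5% of the mean levels), and log2-transformed with a pseudocount of 1, so fold changes of low genes are understated. Groups were compared with limma 3.58.1 in R 4.3.3, p-values were adjusted by Benjamini-Hochberg over the 13363 genes, and the code was tested on simulated data. Ratios were tested by exact permutation in Python 3.11.15, and their p-values were adjusted by Benjamini-Hochberg with scipy 1.17.1. Gene positions are those of GENCODE on GRCm38.

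The members, gene lists and alternatives were chosen with earlier results of these data known. The text names all members, receptors and Smads, up to 5 genes with the largest change among those passing the test in each other list, and for Mstn and the called member with the largest change the 5 genes most like it; Dcn, Id3, Nog, Inha, Inhba, Inhbb, Bmp2, Tgfb1, Ccn2, Fstl3, Strap, Smurf2 and single markers were added as background, and 1 listed gene is not reported here. Alternatives were a pseudocount of 0.1, a minimum mean TPM of 1, quantile normalization, TPM without TMM, the deposited FPKM, a replicate block, an intensity trend in limma and leaving out each muscle. Leaving out replicate 3 of both groups was added after seeing the data.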

Additional observations from a re-analysis of the deposited data

How the results depend on the processing

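Of the members, Fstl1 kept its direction and its call in every alternative but 1 (without C26 replicate 1), and Id1 kept its direction in all. The 3 muscles of a group set the limit: leaving out a muscle gave between 1796 and 5471 genes called of all listed genes, 0 to 3 members called and 13 to 38 pathway genes called, and depth could not be examined. Without replicate 3 of both groups, 4 members and 48 pathway genes were called, in a fit that called 49.3% of all genes. On FPKM as deposited and with quantile normalization 1 member was called (Fstl1). A pseudocount of 0.1 put 1 member (Id2) past a fold of 4 and ended the call of Id1 (adjusted p = 0.0555).

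Same-numbered muscles of the 2 groups did not deviate together (correlations of -0.04, -0.08 and -0.11), so the numbers were not taken as pairs. With a replicate block 3074 genes, 24 pathway genes and 1 member (Fstl1) were called, and Id1 kept its log2 fold change of 0.57 at an adjusted p of 0.0747. The other pathway calls lost with it were Chrdl2 (adjusted p = 0.0691), Pcsk6 (0.0729), Tgfbr2 (0.0755), Tgfbr3 (0.0503), Eng (0.0880), Smurf2 (0.102) and Pmepa1 (0.0746).

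Directions turned for genes that had not passed the test. With quantile normalization the log2 fold change was -0.03 for Mstn, 0.13 for Fst, 0.07 for Acvr2a, 0.15 for Acvr2b, -0.08 for Bmpr1a and 0.12 for Acvr1. On FPKM as deposited it was -0.14 for Bmpr1a, -0.06 for Smad1 and -0.04 for Smad2, and on TPM without TMM 0.02 for Acvr1. Without replicate 3 of both groups it was -0.36 for Mstn and -0.20 for Bmpr1a. Leaving out each muscle gave -0.13 to 0.56 for Mstn, -0.28 to 0.09 for Acvr2a, -0.25 to 0.09 for Acvr2b, -0.15 to 0.18 for Bmpr1a, -0.15 to 0.58 for Smad7 and -0.23 to 0.15 for Acvr1. The cause of these turns was not tested.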
